A study of Mus musculus with 18 samples.

Results

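Circular RNAs (circRNAs) whose antibody-bound signal was marked as detected in the peri-infarct cortex 3 days after a stroke, and was not so marked 7 days after it, were collected from a circRNA microarray of m6A immunoprecipitation. A probe was taken when its antibody-bound (IP) signal was marked as well above background on all 3 arrays of the 3d group and on no array of the 7d group, while its unbound (Sup) signal carried that mark on all 6 arrays. This held for 100 of 14236 circRNA probes, out of 11876 probes with the Sup mark on all 6 arrays. The cap of 300 was not reached, so all 100 were kept. The mark is one cut on the signal of each array, set by the scanner software. The members were thus chosen by their IP and Sup marks on the infarct arrays. All differences between the 3d and 7d groups are therefore descriptions and were not tested.

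All mice were C57BL/6J animals aged 10 weeks. Cortex around the infarct was collected 3 days (3d group) or 7 days (7d group) after permanent distal middle cerebral artery occlusion (MCAO). This blocks the main artery to the lateral cortex, and both common carotid arteries were then occluded for 7 minutes. Cortex of sham mice came from animals with the same surgery but no MCAO. Each group had 3 mice, and each mouse gave 1 array, on which antibody-bound RNA was labelled with Cy5 (IP) and the RNA left in the supernatant with Cy3 (Sup), both after digestion of linear RNA by RNase R. The 3d and 7d arrays shared a slide and a scan, with the 3d arrays in its upper row and the 7d arrays in its lower row, and the sham arrays were on another slide, so the position on the slide cannot be told apart from 3d against 7d, nor the slide from sham against infarct.

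CircRNAs are closed RNA rings formed when a downstream splice site joins an upstream one, and they resist exonucleases and accumulate in brain. N6-methyladenosine (m6A) is written by a methyltransferase complex, removed by demethylases and bound by reader proteins, and on circRNAs it has been tied to export, translation and decay. An antibody against m6A pulls down the marked molecules and leaves the rest in the supernatant, so a probe's IP signal depends both on the share of its circRNA that carries the mark and on how much of that circRNA there is.

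The members were dim probes close to the detection cut. In scanner units of IP intensity minus local background, their median was 14.5, 17.2 and 20.0 on the 3d arrays, 10.0, 11.5 and 11 on the 7d arrays, and 11, 11 and 13 on the sham arrays. Before scaling, every 3d array thus had a higher member median than every other array, and the 7d and sham medians overlapped. Over the 11876 probes with the Sup mark, the median went from 31, 36 and 35.5 on the 3d arrays to 26.5, 30.0 and 27.5 on the 7d arrays and 28.5, 27 and 28 on the sham arrays. The members also moved down within that population: their median percentile in IP was 13 to 19.4 on the 3d arrays, 5.77 to 6.95 on the 7d arrays and 10.2 to 14.1 on the sham arrays. After the scaling on spike-in probes described below, the members' median log2 IP was -4.33, -4.43 and -4.43 in 3d. It was -4.55, -4.51 and -4.29 in 7d, so 7d replicate 3 was then above every 3d array. The IP intensities of single members below are unscaled unless a scale is named.

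**Figure D1:**
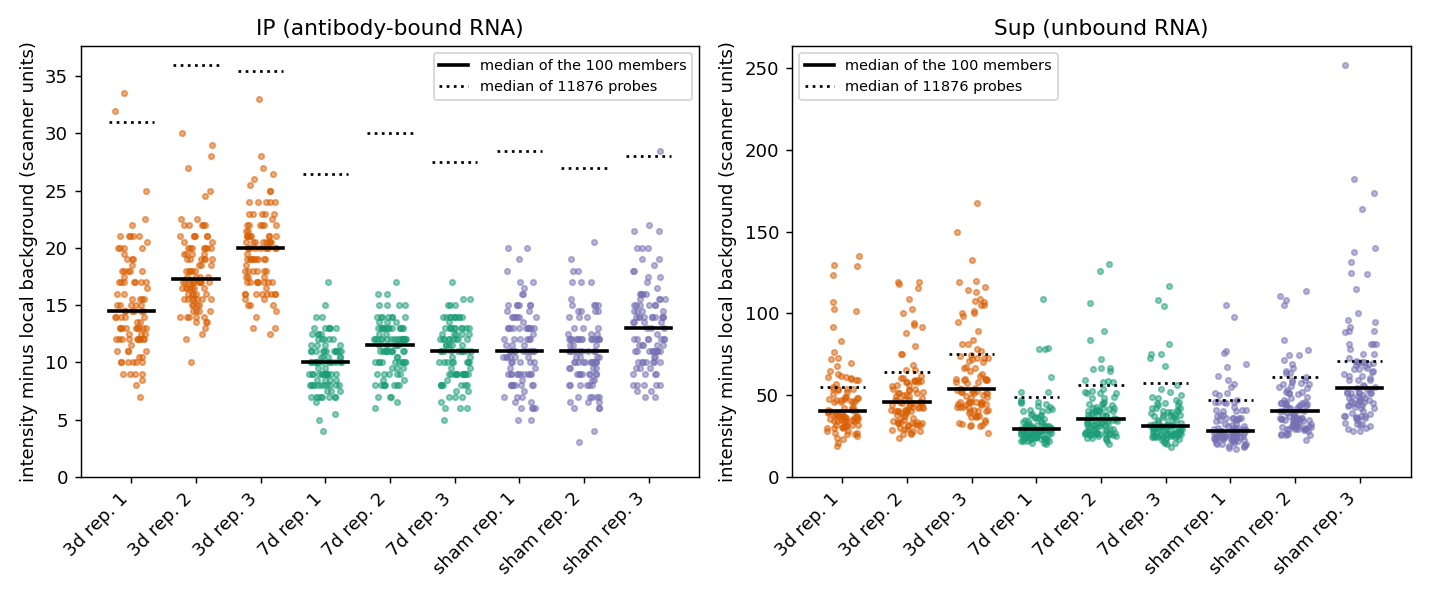
Intensity minus local background (scanner units) of the 100 members on each of the 9 arrays, for IP on the left and Sup on the right, with 1 point per member; solid lines give the median of the members and dotted lines that of the 11876 probes with the Sup mark on all infarct arrays. The IP median of the members lies between 14.5 and 20.0 on the 3d arrays and between 10.0 and 11.5 on the 7d arrays, and the Sup median falls from 40.5 to 53.8 down to 29 to 35.2.

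A loss of bound signal by day 7 is more than these intensities show. The lowest of a member's 3 signals on the 3d arrays was a median of 1.23 times the cut of its array, against 3.88 times for the 9725 probes marked on all 3d and all 7d arrays. It was under 1.2 times the cut for 47 members and over 1.5 times for 16, and it reached 2.12 times at most. On the 7d side, the highest signal of a member was a median of 0.894 times the cut. It was over 0.8 times the cut for 72 members and under 0.5 times for 6, down to 0.211 times for ASCRP4000377. By the software's other criterion, a test of the spot's pixels against the local background, the IP signal of 91 members was still above background on all 7d arrays, of 5 on 2 arrays and of 4 on 1 array, and no member fell below it on all of them. Most members thus lay near a detection limit on both sides, and the IP signal of each was still above its local background on at least 1 7d array.

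The narrowness shows in the members at the edge. ASCRP4006463, the member nearest to the cut, read 12, 20.0 and 18 on the 3d arrays and 10.0, 15 and 10.0 on the 7d arrays, with 6, 10.0 and 10.0 in sham. ASCRP4012794 read 18, 17 and 15.5 in 3d, 10.0, 12 and 7.5 in 7d and 20.0, 10.5 and 18.5 in sham. Just outside, ASCRP4008209 missed the mark on 1 3d array at 0.997 times its cut, with 10.0, 16 and 18.5 in 3d and 7, 8 and 10.5 in 7d. ASCRP4011277 and ASCRP4008479 missed it at 0.996 and 0.994 times the cut. Members and non-members at this boundary overlapped in intensity. A bound on the change was computed after loess and between-array scaling, with each 7d array read as the higher of the member's own signal and the lowest signal of any probe well above background. The member's own signal was the higher one on all 7d arrays for 86 members, so their bound is the ratio of their own scaled signals. By this bound 94 members were higher in 3d. For the other 6 members the bound was below 1 and no fold is given. Nothing is read from the count of 94, because the rule chose high IP in 3d and low IP in 7d. ASCRP4001670 had the largest bound, 1.28-fold. An offset added to all intensities before this scaling draws such folds towards 1. As intensity minus local background, without the offset, the mean IP of ASCRP4001670 was 27.2 in 3d and 10.0 in 7d.

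Exchanging the groups in the rule gave 4 probes, marked in 7d and not in 3d, against the 100 members. IP marks were carried by 12323, 12310 and 11357 circRNA probes on the 3d arrays and by 11255, 11694 and 11330 on the 7d arrays, so 2 of the 3d arrays had more marks than every 7d array and the other lay within the 7d range.

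The host genes of 4 members were known, since the study's own tables name their circRNAs. These 4 had been listed for their level on these same arrays, so their values are no independent evidence of a direction. Mmu_circRNA_19150 (ASCRP4003150, chromosome 15, sense overlapping) comes from Arid2, which encodes a subunit of the PBAF chromatin remodelling complex. Its IP intensity was 25, 21 and 24 on the 3d arrays, 7, 8 and 9 on the 7d arrays and 13, 12 and 15 on the sham arrays. On these unscaled intensities the 3 groups did not overlap, with 7d lowest. The means were 23.3 ± 2.08 in 3d, 8.0 ± 1.0 in 7d and 13.3 ± 1.53 in sham (SD, n = 3). After scaling on the spike-in probes 7d overlapped both other groups. Log2 IP was then -4.111, -4.351 and -4.343 in 3d, -4.627, -4.602 and -4.336 in 7d and -4.530, -4.612 and -4.530 in sham. Its unscaled Sup intensity overlapped between all groups, at 73, 65.5 and 81 in 3d, 38, 72 and 42 in 7d and 43, 57 and 69.5 in sham. After scaling on the spike-in probes every 3d array was above every sham array in Sup, at -2.64, -2.90 and -2.92 against -3.18, -3.19 and -3.09. This held for 39.1% of all probes. Its spot lay in the last row of the array, where all circRNA probes had a lower median IP signal on the 7d arrays. There it was 0.585, 0.607 and 0.509 times that of the rows before the last 12. The part of this in its 7d values was not tested.

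Mmu_circRNA_27268 (ASCRP4000707, chromosome 14, exonic) comes from Appl1, an adaptor protein of early endosomes that binds Rab5. Its IP intensity was 15.5, 16 and 21 in 3d, 9, 12 and 11 in 7d and 8, 8.5 and 8 in sham, where it carried the mark on none of the 3 arrays. The 3d group stood above both others before scaling, and sham was the lowest. After scaling on the spike-in probes 3d and 7d overlapped, at -4.31, -4.46 and -4.40 against -4.58, -4.50 and -4.29. Its spot lay in row 188 of 192. In the last 12 rows the median IP signal of all circRNA probes was 0.746 to 0.801 times that of the other rows on the 7d arrays. The part of this in its 7d values was not tested. Its Sup intensity was 38.7 ± 5.06 in 3d, 37.5 ± 11.3 in 7d and 42.3 ± 10.4 in sham (SD, n = 3), with all groups overlapping. Apart from the arrays, the study measured this circRNA by quantitative PCR after m6A immunoprecipitation. It reported significantly more methylation in 3d than in sham.

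Mmu_circRNA_37703 (ASCRP4013612, chromosome 4, exonic) comes from Ptp4a2, a prenylated protein tyrosine phosphatase. It had the lowest mean sham IP intensity of the members, with 6.5, 7 and 7 in sham, 5, 8.5 and 7 in 7d and 12, 15.5 and 16 in 3d. Sham and 7d did not differ beyond their spread, and 3d lay above both. Its signal was also the third nearest to the cut, 1.02 times it on one of the 3d arrays. Its Sup intensity was level across 3d, at 47.5, 47 and 46, and read 28, 45 and 46 in 7d and 36, 40.5 and 55.5 in sham.

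Mmu_circRNA_19402 (ASCRP4001538, chromosome 5, sense overlapping) comes from Cdk8, the kinase of the Mediator complex. Its IP intensity was 15, 15 and 17.5 in 3d, 13, 12 and 8 in 7d and 19, 18 and 15 in sham. Sham overlapped 3d and carried the mark on all 3 arrays, so that 7d was the group apart on these unscaled intensities. After scaling on the spike-in probes all groups overlapped. Log2 IP was then -4.320, -4.482 and -4.480 in 3d, -4.479, -4.502 and -4.362 in 7d and -4.400, -4.478 and -4.530 in sham. Its Sup intensity went the other way from most members, with 39, 40 and 43 in 3d, 44.5, 49 and 49 in 7d and 46, 53 and 51 in sham. Its spot, too, lay in the last row of the array. There the median IP signal of all circRNA probes was 0.509 to 0.607 times that of the other rows on the 7d arrays. The part of this in its 7d values was not tested.

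**Figure D2:**
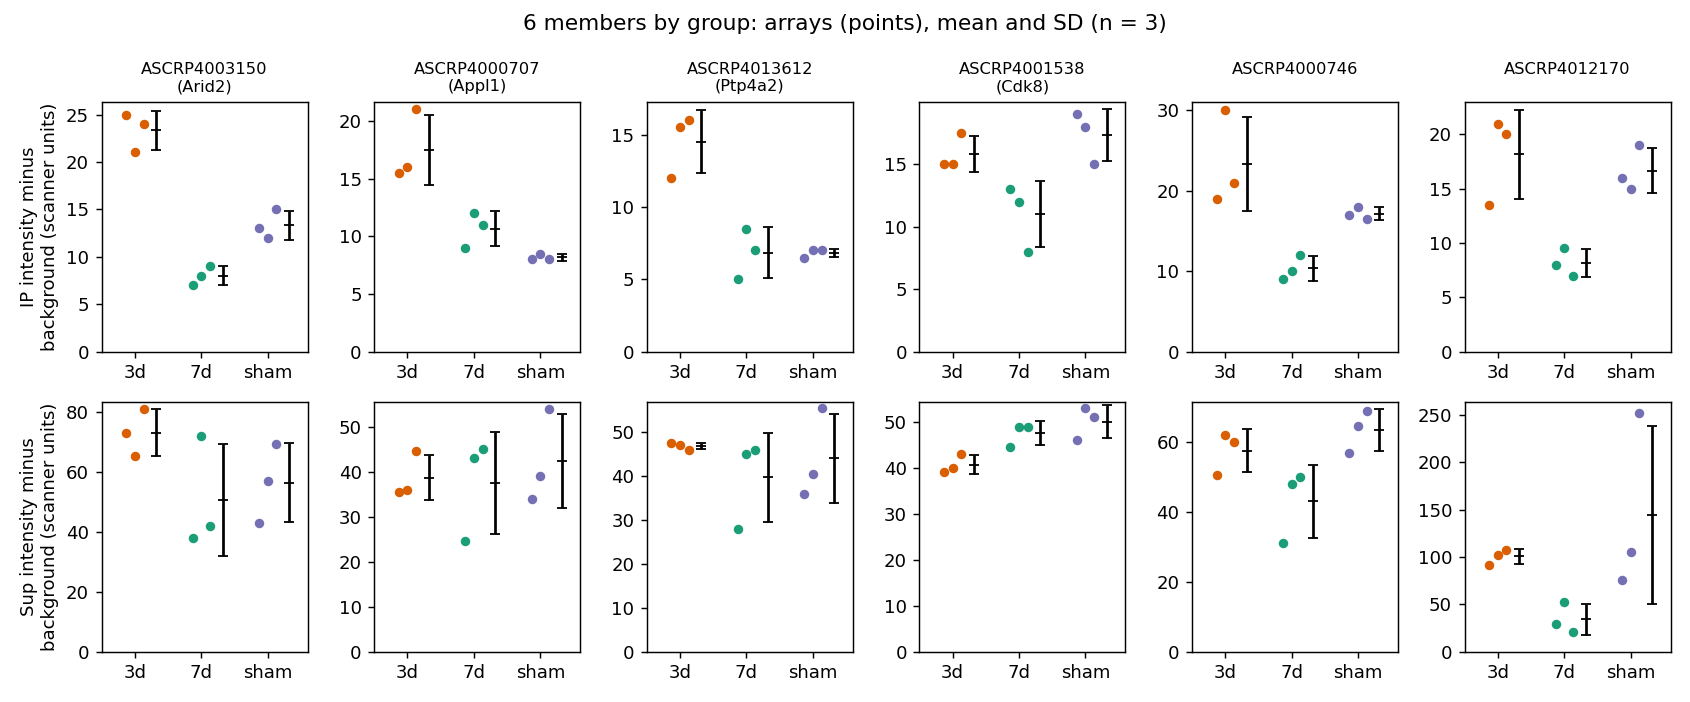
IP (top row) and Sup (bottom row) intensity minus local background, in scanner units, of 6 members by group, with 1 point per array and the mean ± SD (n = 3) beside it; the vertical axes start at 0 and differ between panels. On these unscaled intensities, the bound signal of the Arid2 circRNA separates all 3 groups. Those of the Appl1 and Ptp4a2 circRNAs set 3d apart, and that of the Cdk8 circRNA sets 7d apart. After scaling on the spike-in probes, the 3d and 7d arrays of the Arid2, Appl1 and Cdk8 circRNAs overlapped. The Arid2 and Cdk8 circRNAs, ASCRP4000746 and ASCRP4012170 lie in the last row of the array, where the 7d arrays read lower in IP. The Appl1 circRNA lies in row 188, among the last 12 rows, where the 7d arrays also read lower.

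Among the members brightest in IP at day 3, ASCRP4001670 led with 33.5, 21 and 27 in 3d against 11, 6 and 13 in 7d and 17, 9 and 12 in sham. ASCRP4000566 and ASCRP4008414 shared the next place at a mean of 25. ASCRP4000566 read 21, 29 and 25 in 3d, 10.0, 11.5 and 14 in 7d and 16.5, 14 and 20.0 in sham, so 7d had the lowest mean before scaling. It was also the one whose signal stayed farthest from the cut on its weakest 3d array. ASCRP4008414 varied more between the 3d mice, with 32, 28 and 15, against 11.5, 12 and 8 in 7d. ASCRP4000746 reached 19, 30.0 and 21 in 3d and 9, 10.0 and 12 in 7d, with a narrow 17, 18 and 16.5 in sham. ASCRP4004669 and ASCRP4007805 were also in this group, and all of these probes had 3d intensities above every one of their 7d intensities. Over all members, the 3d and 7d intensities did not overlap for 64, beside 22.4% of the 11876 probes, a count from which nothing is read because the rule used this contrast.

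On the intensities before scaling, the sham arrays, which the rule did not use, placed most members between the infarct groups. The IP mark was present on all 3 sham arrays for 20 members, on 2 for 40, on 1 for 27 and on none for 13. Of the 9725 probes marked on all infarct arrays, 96.6% carried it on all 3 sham arrays and 0.0514% on none. The number of members marked was 65, 28 and 74 on the sham arrays, against 91.0%, 87.8% and 92.4% of the 11876 probes, and the array of sham replicate 2 had the fewest in both. The mean sham intensity lay between the 7d and 3d means for 60 members, at or below the 7d mean for 38 and at or above the 3d mean for 2. In 44 members every sham array was below every 3d array, where 22.1% of the 11876 probes were, and in 14 members every 7d array was below every sham array, where 23.2% were. The 3d values had been chosen high and the 7d values low by the rule, and these counts are not tests. After scaling on the spike-in probes, sham was not in between. The members' median log2 IP was -4.58, -4.64 and -4.58 on the sham arrays, below -4.55, -4.51 and -4.29 on the 7d arrays. Over the 11876 probes it was also lower in sham, at -4.21, -4.30 and -4.27 against -4.19, -4.12 and -3.93 in 7d.

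**Figure D3:**
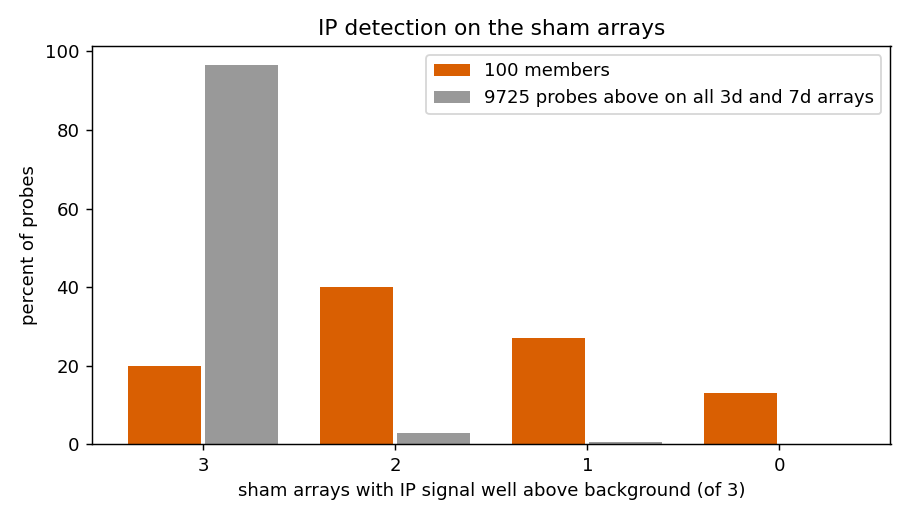
Percent of probes by the number of sham arrays (0 to 3) on which the IP signal was well above background, for the 100 members and for the 9725 probes with that mark on all 3d and 7d arrays. Most members (40% and 27.0%) were marked on 2 or 1 sham arrays, while 96.6% of the other probes were marked on all 3.

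The members with the highest sham intensity were ASCRP4006146, ASCRP4009660, the Cdk8 circRNA, ASCRP4000746 and ASCRP4000566. Of these, ASCRP4009660, the Cdk8 circRNA and ASCRP4000746 lay in the last row of the array and ASCRP4000566 in row 189 of 192. In these last rows the median IP signal of all circRNA probes was lower on the 7d arrays, as given below. ASCRP4006146 read 18, 20.5 and 28.5 in sham, 15.5, 22 and 26 in 3d and 15, 14 and 9 in 7d. Before scaling, sham and 3d thus overlapped and 7d was below both. ASCRP4009660 had the same order, with 20.0, 14.5 and 20.0 in sham, 21, 22 and 16 in 3d and 8, 14 and 13 in 7d. At the other end, beside the Ptp4a2 circRNA, ASCRP4004489 read 7, 3 and 11 in sham, 9, 13 and 13 in 3d and 7, 10.0 and 9 in 7d. ASCRP4004408 read 10.0, 4 and 9 in sham and 17, 18.5 and 33 in 3d.

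On the intensities as scanned, the unbound signal of the same circRNAs was lower in 7d as well, a direction that turned to a log2 difference of 0.039 when the arrays were scaled on all spike-in probes. All members kept the Sup mark on the 3 sham arrays as well as on the infarct arrays the rule used. Their median Sup intensity was 40.5, 46 and 53.8 on the 3d arrays, 29, 35.2 and 31 on the 7d arrays and 28, 40.2 and 54.2 on the sham arrays, so 7d lay below 3d and sham spanned both. Mean Sup intensity was lower in 7d than in 3d for 91 members, beside 74.3% of the 11876 probes. In 68 members no 7d array reached any 3d array in Sup, which held for 34.1% of the 11876 probes. Across the 100 members, the log2 ratio of 7d to 3d in IP and that in Sup had a Pearson correlation of 0.457 and a Spearman correlation of 0.406, as a description over members that share the same 6 arrays. The median ratio of IP to Sup intensity, each minus background, was 0.339, 0.379 and 0.350 on the 3d arrays, 0.323, 0.316 and 0.337 on the 7d arrays and 0.363, 0.252 and 0.233 on the sham arrays. It was lower than the median of 0.479 to 0.568 of the 11876 probes on the 3d arrays and of 0.531 to 0.580 on the 7d arrays. In bulk cortex, fewer cells that make a circRNA cannot be told apart from less of it per cell.

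On the log2 scale, after normexp correction with an offset of 50 and scaling on spike-in probes, the median difference of 7d minus 3d over the members was -0.06 in IP and -0.30 in Sup, where the 11876 probes had 0.01 and -0.20. Relative to those probes the members were thus at -0.07 in IP and -0.10 in Sup, and at 0.04 in IP only where the normexp background was fitted with the spots of non-uniform background. The offset is large beside the intensities of these probes and draws their differences towards 0. Without it, the median difference was -0.72 in IP and -0.67 in Sup, where the 11876 probes had -0.12 and -0.33. The level, IP as a percent of IP plus Sup, rose by a median of 3.77 points with the offset and fell by a median of 0.25 points on the software's processed signals, where the 11876 probes rose by 3.43 and 7.30 points, so no direction of the level is given for the members. Relative to those probes the members were at 0.34 points with the offset and at -7.54 points on the processed signals. By the processed signals 50 members had a lower and 50 a higher mean level in 7d than in 3d. The Arid2 circRNA showed the same dependence: its level was 15.3 ± 0.6% in 3d, 4.6 ± 0.6% in 7d and 16 ± 4.6% in sham (SD, n = 3) on the processed signals, but 26.5, 26.8 and 27.2% in 3d and 30.3, 23.4 and 32.8% in 7d with the offset.

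Whether the Sup signal of the members differed from sham, a comparison whose control arrays the rule did not use, was tested with limma over 13651 circRNA probes on all 9 arrays. A probe counted as called when it differed by more than 1.5-fold and P was below 0.05 before adjustment. The rule asked for a Sup mark on all infarct arrays, high IP on the 3d arrays and low IP on the 7d arrays, and IP and Sup of the members moved together, so neither comparison nor any P value in it is free of the rule. In 3d against sham 1 member was higher and 0 were lower, beside 2.53% and 0.132% of all probes tested. The median difference was 0.20, beside 0.19 over the 11876 probes, so the members moved as the array did. In 42 members every 3d array was above every sham array on this scale, which held for 39.1% of all probes, and in 0 members every 3d array was below, which held for 0.766%. On the intensities minus background, before scaling, every 3d array was above every sham array in 1 member, beside 232 of the 11876 probes. After Benjamini-Hochberg adjustment the same member passed, beside 0.703% of all probes higher and 0.022% lower.

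The called member was ASCRP4005353. Its Sup log2 values relative to the spike-in probes were -2.80, -2.97 and -2.70 in 3d, -3.67, -3.49 and -3.73 in 7d and -3.53, -3.67 and -3.22 in sham. The 3d arrays were above all others, 0.65 ± 0.13 (SE) over sham (limma, unadjusted P = 0.000816, adjusted P = 0.0381). Its unscaled IP intensity was 20.0, 20.5 and 22 in 3d, 8.5, 7 and 6 in 7d and 14, 12 and 16 in sham. This set all 3 groups apart, with 7d lowest. Scaled like its Sup, its log2 IP was -4.21, -4.36 and -4.38 in 3d, -4.59, -4.63 and -4.41 in 7d and -4.51, -4.61 and -4.51 in sham. On that scale 3d stayed above both others, and 7d and sham overlapped. This call was lost without 3d replicate 3 or without sham replicate 2, when 0 members were called, and when each array was centred on its median circRNA probe. On the software's processed signals 61 members were called higher, where 5262 of the 13651 probes were.

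In 7d against sham 3 members were lower and 0 were higher, beside 2.5% and 0.388% of all probes tested, and 0 members passed after Benjamini-Hochberg adjustment in limma, like 0 of all probes. With no fold threshold, 18 members had an unadjusted P below 0.05 (limma), all of them lower, beside 11.2% of all probes lower and 4.41% higher. The median difference was -0.09, beside -0.01 over the 11876 probes, and in 25 members every 7d array was below every sham array, beside 15.5% of all probes, and in 2 above, beside 8.56%. On the intensities minus background, every 7d array was below every sham array in 9 members, beside 7.38% of the 11876 probes. In 11 members every 3d array was above and every 7d array below the sham arrays on the log2 scale, beside 4.69% of all probes. On the processed signals 18 members were called lower, where 1367 of the 13651 probes were.

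The largest of the 3 differences was that of ASCRP4012170, with Sup log2 values of -3.60, -3.17 and -3.74 in 7d, -2.70, -2.61 and -1.65 in sham and -2.42, -2.47 and -2.64 in 3d. The 7d arrays were below all others, by -1.18 ± 0.27 (SE) against sham (limma, unadjusted P = 0.00182, adjusted P = 0.182). Its IP intensity was 13.5, 21 and 20.0 in 3d, 8, 9.5 and 7 in 7d and 16, 15 and 19 in sham. Its spot lay in the last row of the array, where Sup also read lower on 7d replicates 1 and 3, as given below. The part of this in its difference was not tested. ASCRP4004408 had -3.32, -3.09 and -3.39 in 7d and -2.93, -2.95 and -2.10 in sham, a difference of -0.61 ± 0.22 (SE; limma, adjusted P = 0.255). ASCRP4011664 had -3.30, -2.97 and -3.34 in 7d and -2.81, -2.95 and -2.05 in sham, a difference of -0.60 ± 0.23 (SE; limma, adjusted P = 0.282). In all 3 circRNAs sham replicate 3 was above the other sham arrays, and without it 1 member was called lower. Without 7d replicate 1 or 7d replicate 3, 1 member was called too.

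**Figure D4:**
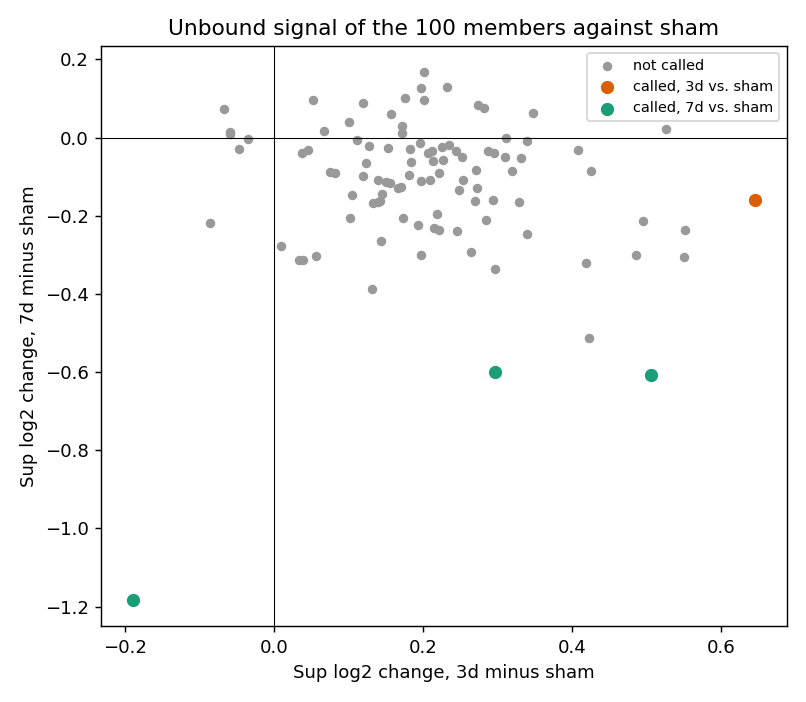
Sup log2 change against sham of the 100 members, 3d minus sham on the horizontal and 7d minus sham on the vertical axis, with the called members in colour. Most members lie to the right of 0 (93 of 100) and below 0 (81 of 100), and 1 and 3 members were called; both axes share the sham arrays.

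Members lay in every part of the array, but more of them in its last rows. Of the 192 rows of spots, the last 12 held 26 members, where 5.46% of the 11876 probes lay, and the 12 rows before them held 12. The first 12 rows held 2. In the last 12 rows 4.01% of the probes with the Sup mark were members, against 0.133% to 1.63% in the other bands of 12 rows. The very last row held 5 members among its 70 circRNA probes, and these were the Arid2 and Cdk8 circRNAs, ASCRP4000746, ASCRP4009660 and ASCRP4012170. These bands were drawn after the values were seen.

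The IP signal in those rows differed between the arrays of the 2 infarct groups. The median IP signal of all circRNA probes in the last 12 rows was 0.801, 0.789 and 0.746 times that of the other rows on the 7d arrays. It was 0.971, 0.970 and 1.04 times that on the 3d arrays and 1.03, 0.982 and 1.02 times on the sham arrays. In the very last row it was 0.585, 0.607 and 0.509 times on the 7d arrays and 0.997 to 1.15 times on the others. The Sup signal of the last 12 rows was 0.855 to 0.928 times on the 7d arrays and 0.994 to 1.04 times elsewhere. In the very last row the Sup signal was 0.646, 1.01 and 0.796 times on the 7d arrays. It was 1.19, 1.33 and 1.11 times on the 3d arrays and 1.13, 1.24 and 1.21 times on the sham arrays there. The part of this edge in the IP difference of the 26 members was not tested probe by probe. The other 74 members had a median IP intensity of 17.1 ± 2.88 in 3d, 11 ± 1.0 in 7d and 11 ± 0.866 in sham (SD of the medians of 3 arrays), and relative to the probes of the same rows all 100 members had a median IP difference of -0.04 on the log2 scale. Without the last 12 rows, 0 members were called in 3d against sham and 2 in 7d against sham, since ASCRP4005353 and ASCRP4012170 lie there.

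**Figure D5:**
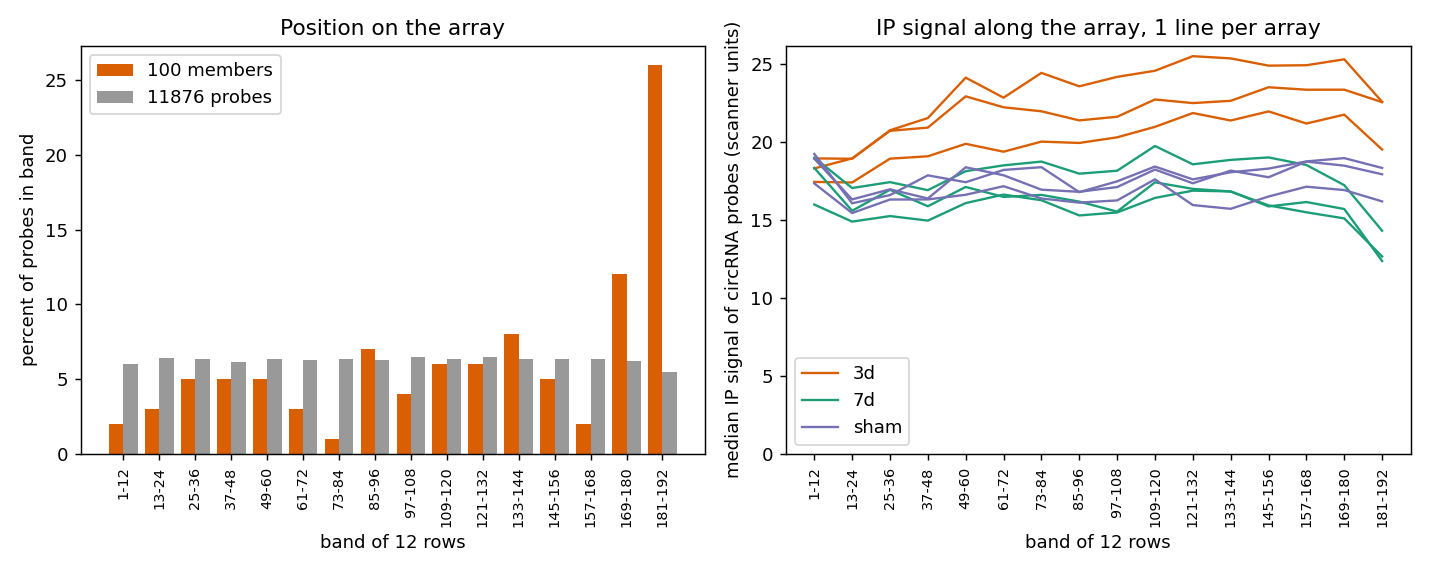
Left, percent of the 100 members and of the 11876 probes with the Sup mark in each band of 12 rows of spots; right, median IP signal (scanner units, background subtracted by the software) of all circRNA probes in each band, 1 line per array. The last band held 26 members, where the IP signal of the 7d arrays was 0.746 to 0.801 times that of the other rows and that of the sham arrays 0.982 to 1.03 times; the 3d arrays also read lower there than in the band before.

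Cell composition could hardly be read from this array. Of 20 marker genes of neurons, astrocytes, microglia, oligodendrocytes and endothelium, 1 was among the 50 linear mRNA probes, Mbp, which encodes the myelin basic protein of oligodendrocytes. Its Sup intensity, before scaling, was 42.8, 44.8 and 53 in 3d, 44.2, 50.8 and 73.5 in 7d and 39, 42.2 and 43.8 in sham. The infarct groups overlapped each other, and 7d lay above sham only narrowly, at 44.2 against 43.8, on another slide. Linear RNA had been digested with RNase R, so the signal of this linear mRNA is not read as cell content. The tissue label was not checked further, and the part of cell composition in the members' values was not tested.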

How the data were processed

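Total RNA of 9 mice was immunoprecipitated for m6A and hybridised by the authors to 2-colour circRNA arrays, read with Agilent Feature Extraction 11.0.1.1 per the labels. The deposited scanner files hold intensities and detection marks, and both files of an array were identical. The deposited log2 table equals the log2 processed signal minus the mean of 10 spike-in probes, found by matching it.

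Intensities were corrected with normexp (offset 50, limma 3.58.1, R 4.3.3), and each channel was scaled on those 10 probes. Spots with a non-uniform local background were left out of the normexp fit, since with them its background mean for 7d replicate 3 was -75.4 in IP, against 1.94 without. Outlier spots were omitted, and none was a member. Sup was fitted over 13651 probes well above background on at least 3 arrays. Bounds used loess and Aquantile. The fit was tested on simulated data.

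The members and lists were chosen with earlier results of these data known. Named were members in the study's tables, the 8 brightest in 3d, the 5 highest and 3 lowest in sham, 3 on each side of the cut and up to 3 called members in each direction. All 60 table entries matched 1 probe each through their fold change and P, giving 4 members a name. The host genes of the other 96 are not given in the sources used here, so host gene lists (ubiquitin, chromatin, synaptic, endocytic, m6A enzymes) were not counted; Arid2 is on the chromatin and Appl1 on the endocytic list. Replicate numbers were checked for pairing by how arrays deviated together in Sup. Same-numbered 3d and sham arrays had r = 0.542, 0.242 and 0.537, and differently numbered ones had r from -0.645 to 0.595. The highest was that of 3d replicate 2 with sham replicate 1, so no pairing is read from these values. Same-numbered arrays of 7d with 3d or sham had r below 0.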

Additional observations from a re-analysis of the deposited data

Results flagged for a closer look

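On the scaled log2 values, the Sup signal of 2 named members was above every sham array on all 3d arrays and below every sham array on all 7d arrays. For ASCRP4006146 the log2 change was 0.20 in 3d against sham and -0.30 in 7d against sham. For ASCRP4004669 it was 0.30 and -0.34. On the intensities minus background, before scaling, the 3d and sham arrays of both overlapped. Of all members 11 had this pattern, beside 4.69% of all probes. The difference between the infarct groups was not tested, because the members were chosen on that contrast.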

How the results depend on the processing

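The number of members was 29 by the software's pixel test in place of the mark, none of them among the 100, 579 with the mark on at least 2 of 3 3d arrays and at most 1 of 3 7d arrays, and 112 to 210 when 1 infarct array was left out. Medians over the members follow as IP 7d minus 3d, Sup 3d minus sham, Sup 7d minus sham and Sup 7d minus 3d (log2), then level 7d minus 3d (points) and the members called in 3d and in 7d against sham. Processed signals gave -1.09, 0.70, -0.29, -1.01, -0.25, 61 and 18, the deposited values -1.07, 0.71, -0.31, -1.02, 0.33, 58 and 18, and normexp with no offset -0.72, 0.32, -0.32, -0.67, 0.15, 16 and 25. In 3d these settings called 5262, 4701 and 1845 of all probes higher and 60, 57 and 101 lower, and in 7d 788, 778 and 473 higher and 1367, 1213 and 1356 lower, of 13651 probes, or 12185 for the deposited values. With no background correction IP was -0.16, Sup 7d minus 3d -0.41 and 7 members were called in 3d. Centring on the median circRNA probe gave Sup 0.031 in 3d minus sham and -0.12 in 7d minus 3d, a level of 1.28 and 0 calls in 3d, and quantile normalization 0.033, -0.13, 0.56, 0 and, in 7d, 1. In 7d against sham 1 member was called with outlier spots kept or by the methods' t-test, and 0 after adjustment.

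Alternatives added after seeing the data moved the Sup direction. Scaling on all spike-in probes turned Sup to -0.032 in 3d minus sham, 0.017 in 7d minus sham and 0.039 in 7d minus 3d, and the level to -1.90, with 0 and 1 calls. Such a scaling shifts all log2 IP or Sup values of an array alike, so differences in these between members and other probes could hardly change. For the level they could, and the members were at 0.56 points relative to the 11876 probes, against 0.34 in the main setting. Normexp fitted on all spots gave IP 0.27, Sup 0.12 in 7d minus sham and -0.10 in 7d minus 3d, a level of 5.74 and 1 call in 7d. Relative to the same 12 rows, Sup was 0.028 in 3d minus sham and -0.12 in 7d minus 3d, the level 0.23 and the calls in 3d 0. Outside the last 12 rows 0 members were called in 3d. With 1 array left out, the calls ranged from 0 to 7 in 3d and from 1 to 4 in 7d, and IP stayed between -0.14 and -0.0038. With the replicate number as a block, 1 and 2 members were called, so the block changed neither direction. Replicate numbers come from the sample titles, and the sample descriptions give other numbers for 3 of the 9 mice (7d replicates 2 and 3, sham replicate 3), so the block and the pairing rest on the titles. The members' spots are close to background, and over the background corrections their median IP difference ranged from -1.09 to 0.27. The number of arrays, 3 in a group, limits the precision.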
